A study of Mus musculus with 12 samples.

Results

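The hexosamine pathway and the enzymes that put O-GlcNAc on proteins and take it off are described here through 10 genes, each found by its symbol in a count table of 23366 genes. They are Gfpt1, Gfpt2, Gnpnat1, Pgm3, Uap1, Uap1l1, Ogt, Mgea5, Nagk and Gnpda1. All 10 passed the filter on low counts and were tested, with Gfpt2 the lowest of them (27 to 276 reads per library). RNA was sequenced from C57BL/6 mouse embryonic fibroblasts (MEFs) at passages 3 to 5, of wild-type or Carm1 KO genotype. The labels name no allele for the knockout. Carm1 encodes an arginine methyltransferase that acts on histone H3 and serves as a transcriptional coactivator. There were 4 groups of 2 libraries: wild type in rich medium (WT), wild type after 18 h of glucose starvation (WT-GS), Carm1 KO in rich medium (KO) and Carm1 KO after 18 h of glucose starvation (KO-GS). Rich medium was DMEM with 10% fetal bovine serum, while starved cells had glucose-free DMEM with 10% dialyzed serum, so dialysis of the serum and time in the new medium moved together with glucose. Nothing in the labels says whether the paired libraries came from different cultures, and p-values then measure only the spread between these libraries, which may be technical.

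The hexosamine pathway takes a small part of the cell's glucose, as fructose 6-phosphate, and joins it with nitrogen from glutamine, an acetyl group and a uridine nucleotide to give UDP-GlcNAc. This nucleotide sugar is the donor for N-glycans, hyaluronan and heparan sulfate, and for O-GlcNAc, a single sugar on serine and threonine residues of nuclear and cytosolic proteins. One transferase, OGT, adds O-GlcNAc and one hydrolase, encoded by Mgea5 (also named Oga), removes it. The pathway is often described as a nutrient sensor, and several of its genes are known targets of the unfolded protein response.

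Gene counts totalled between 8447014 and 28155431 per library, and levels are given as CPM, the read count of a gene relative to its library's total after scaling by the trimmed mean of M values (TMM). CPM is not corrected for gene length, so levels are compared between libraries and not between genes. Carm1 stood at 164 to 207 CPM in the wild-type libraries and 48.1 to 70.8 CPM in the knockout libraries. The knockout rich pair stood apart: its replicates differed by up to 2.87-fold among the 10 genes, against at most 1.17-fold in the other groups, and replicate 1 was the shallowest library. The genotypes also differed in markers of cell type. Of the fibroblast markers, Dcn and Thy1 were at 1172 to 1954 and 124 to 180.4 CPM in knockout libraries but at 0.372 to 0.762 and 0.0465 to 0.214 CPM in wild-type libraries, while Col1a1 was lower there, at 636 to 1206 against 1400.2 to 2807 CPM. Of the endothelial markers, the cadherin Cdh5 was at 126 to 240.3 CPM in the knockout and 0 to 0.0713 CPM in the wild type, and the receptor Kdr went the other way, at 0 to 0.0861 against 1.78 to 4.50 CPM. By edgeR, 9 of the 17 markers tested were higher and 3 lower in the knockout in rich medium. Of all genes, 23.4% were higher and 20.7% lower there. After starvation 11 markers were higher and 5 lower, where 27.8% of all genes were higher and 26.8% lower. Both directions occurred among the fibroblast, endothelial and epithelial markers in each medium, and among the leukocyte markers after starvation. The summed fibroblast markers ran from 4853 to 8565 CPM over all 8 libraries, the summed epithelial and leukocyte markers reached at most 3.74 and 5.23 CPM, and 1 of 4 epithelial, 2 of 4 leukocyte and 1 of 4 endothelial markers were under 1 CPM throughout. Of the leukocyte markers, Ptprc was at 0 in all wild-type libraries and at 0 to 0.775 CPM in knockout libraries. Csf1r was at 0 to 0.139 CPM in wild-type and 0.984 to 2.24 CPM in knockout libraries. Cd68 went the other way, at 2.04 to 5.09 CPM in wild-type and 1.24 to 1.72 CPM in knockout libraries. In every comparison of the genotypes below, the knockout cannot be told apart from these differences between the cultures, and in bulk RNA fewer cells of a type cannot be told apart from less RNA per cell.

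**Figure D1:**
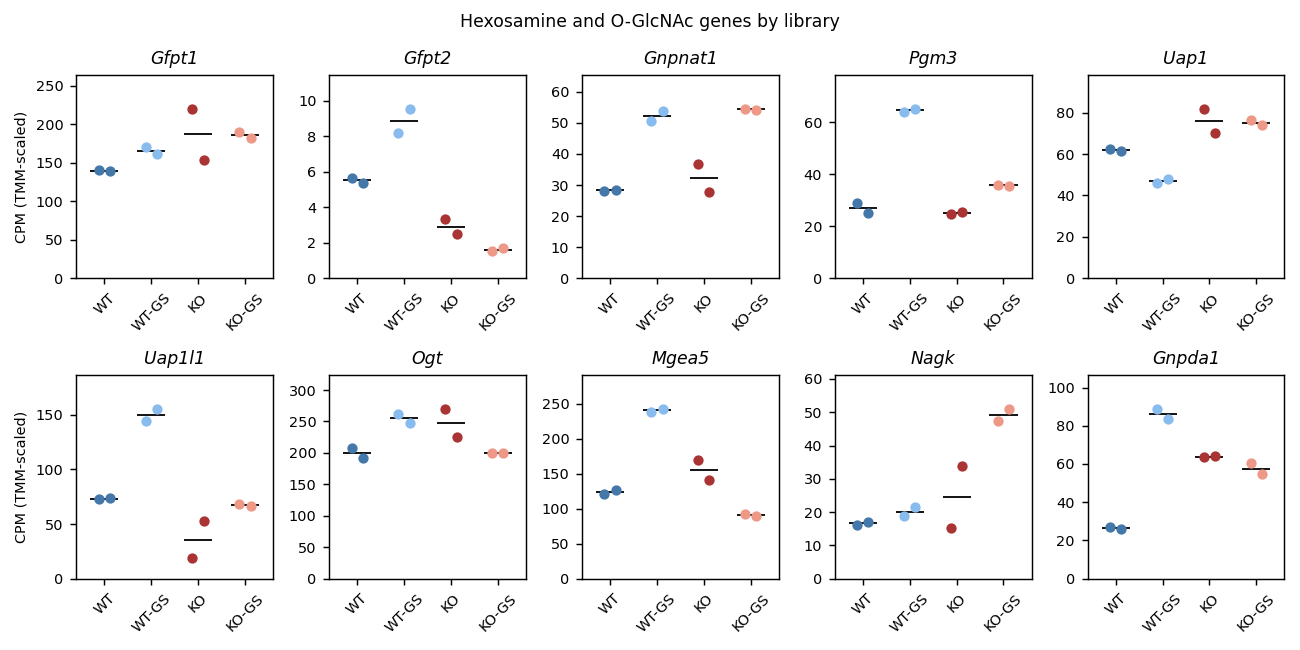
Level of each of the 10 genes in the 8 libraries. The vertical axis is CPM on scaled library sizes and starts at 0, points are single libraries and short lines are means of 2. Mgea5 and Gnpda1 are higher in both WT-GS than in both WT libraries, while Mgea5 is lower in both KO-GS than in both KO libraries.

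Starvation of wild-type cells raised 5 of the 10 genes and lowered 1, by an edgeR quasi-likelihood test with Benjamini-Hochberg adjustment over the 13882 genes tested (adjusted p under 0.05). Of all genes tested, 32.8% passed in this comparison, 14.8% higher and 18% lower. The median log2 fold change of the 10 genes was 0.79, against 0.00 over all genes. The libraries of the groups did not overlap for any of the 10 genes, which was also the case for 81.8% of all genes. The genes that rose lay in the middle of the synthetic route (Gnpnat1, Pgm3), in its second entry enzyme (Gfpt2), in O-GlcNAc removal (Mgea5) and in the return of amino sugar to glycolysis (Gnpda1). Markers of cell type moved in the same comparison: the fibroblast genes Col1a1 (-0.94 ± 0.20), Col1a2 (-1.50 ± 0.28), Col3a1 (-1.21 ± 0.22) and Pdgfrb (-0.95 ± 0.27) were lower, and Cd68 (1.15 ± 0.25) and Kdr (1.15 ± 0.28) were higher. Their part in the values of the 10 genes was not tested.

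Gfpt1 encodes the main glutamine:fructose-6-phosphate amidotransferase, the rate-limiting entry enzyme. It was at 141 and 139 CPM in WT and 171 and 161 CPM in WT-GS libraries. These pairs did not overlap, but the difference missed the threshold (log2 fold change 0.25 ± 0.18, SE; adjusted p = 0.321, edgeR). Gfpt2, the second isozyme, went from 5.67 and 5.35 to 8.17 and 9.56 CPM, a rise of 0.69 ± 0.21 (adjusted p = 0.0443). Its call was lost under 13 of 20 other settings, among them DESeq2 and the removal of any wild-type or KO-GS library.

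The next enzymes of the route rose more. Gnpnat1 acetylates glucosamine 6-phosphate. Its level was 28.1 and 28.5 CPM in WT and 50.6 and 53.8 CPM in WT-GS libraries (0.88 ± 0.16, adjusted p = 0.00691). Pgm3 converts N-acetylglucosamine 6-phosphate to the 1-phosphate. It stood at 29.2 and 25.2 CPM in rich medium and at 64.0 and 65.3 CPM after starvation, a rise of 1.25 ± 0.14 (adjusted p = 0.00104) that passed under all 20 other settings. The call of Gnpnat1 was lost without either WT library or WT-GS replicate 2, and with a minimum change of 1.5-fold.

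Uap1 encodes the pyrophosphorylase that makes UDP-GlcNAc, the last step, and was the gene that fell. It was at 62.6 and 61.4 CPM in WT and 45.9 and 48.0 CPM in WT-GS libraries (-0.40 ± 0.13, adjusted p = 0.0499), a value at the threshold that was lost under 12 of 20 other settings. Uap1l1, a gene of related sequence, was at 73.0 and 73.3 CPM in rich medium and 144 and 155 CPM after starvation. The wild-type pairs lay far apart, but in the fit of all 8 libraries, in which the knockout rich pair of 18.5 and 53.0 CPM enters the spread, the difference missed the threshold (1.03 ± 0.40, adjusted p = 0.0856). When only the wild-type libraries were fitted, all 10 genes passed, 9 higher (Uap1l1 among them) and 1 lower. The filter on low counts was run again for that fit, and over all genes it kept, 9332 passed.

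Of the O-GlcNAc pair, the hydrolase rose and the transferase missed the threshold. Mgea5 was at 121 and 126 CPM in WT and 239 and 243 CPM in WT-GS libraries, a rise of 0.96 ± 0.13 (adjusted p = 0.00225) that passed under all 20 other settings. Ogt was at 207 and 192 CPM in WT and 261 and 248 CPM in WT-GS libraries (0.35 ± 0.13, adjusted p = 0.0806). Among the genes that handle amino sugar outside synthesis, Gnpda1 had the largest change of the 10. It encodes a deaminase that turns glucosamine 6-phosphate back into fructose 6-phosphate. Its level went from 27.2 and 25.8 to 88.9 and 83.6 CPM (1.70 ± 0.13, adjusted p = 0.000313), 96.4% of the way up the ranking of all genes by log2 fold change, and it passed under all 20 other settings. Nagk, the kinase that salvages N-acetylglucosamine, was at 16.3 and 17.1 CPM in WT and 18.7 and 21.6 CPM in WT-GS libraries (0.27 ± 0.33, adjusted p = 0.565).

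The sequences before the starts of Pgm3, Gfpt1, Mgea5 and Ogt are shown because these genes span the responses seen here: a rise in both genotypes, no call in either, and both enzymes of O-GlcNAc cycling. Each run is the 250 bases before the RefSeq start, 5′ to 3′ on the gene's strand, in build GRCm38.p6, which is not the mm9 build of the counts. The windows are chr9:86571843-86572092 (minus strand), chr6:87042596-87042845 (plus), chr19:45783554-45783803 (minus) and chrX:101639801-101640050 (plus, the first of its 2 windows). Capitals mark CCAAT and CCACG, the ends of the ER stress element, on either strand.
Pgm3: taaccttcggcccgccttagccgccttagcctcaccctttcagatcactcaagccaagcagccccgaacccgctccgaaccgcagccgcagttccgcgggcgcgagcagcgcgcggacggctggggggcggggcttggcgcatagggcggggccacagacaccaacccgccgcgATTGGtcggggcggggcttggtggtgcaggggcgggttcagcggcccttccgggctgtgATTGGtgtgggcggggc
Gfpt1: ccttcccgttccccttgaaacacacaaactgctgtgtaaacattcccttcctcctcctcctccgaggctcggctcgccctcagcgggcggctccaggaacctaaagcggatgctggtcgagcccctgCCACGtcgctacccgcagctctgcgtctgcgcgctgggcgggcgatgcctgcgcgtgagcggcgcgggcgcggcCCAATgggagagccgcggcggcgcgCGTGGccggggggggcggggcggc
Mgea5: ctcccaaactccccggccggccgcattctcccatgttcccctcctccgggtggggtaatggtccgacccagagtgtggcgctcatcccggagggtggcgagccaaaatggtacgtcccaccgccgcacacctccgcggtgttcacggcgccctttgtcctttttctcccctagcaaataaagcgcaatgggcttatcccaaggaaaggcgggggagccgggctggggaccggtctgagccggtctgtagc
Ogt: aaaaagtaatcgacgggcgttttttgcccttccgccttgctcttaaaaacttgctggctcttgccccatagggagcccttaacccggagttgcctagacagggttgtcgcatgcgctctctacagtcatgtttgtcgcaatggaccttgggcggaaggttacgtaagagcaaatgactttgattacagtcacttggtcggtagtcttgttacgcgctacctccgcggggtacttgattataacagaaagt
Gnpda1, which had the largest change in wild-type cells, was left out of the search, as were Gnpnat1 and Uap1l1. Windows of the other 7 of the 10 genes were searched. None of them had the full ER stress element (CCAAT and CCACG, 9 bases of any kind apart), the unfolded protein response core TGACGTGG or the C/EBP-ATF core TGATGNAAT on either strand. These occur in 0.113%, 0.563% and 0.816% of all 32851 windows. At such low rates, finding none in 7 genes was likely beforehand and tells little about them. CCAAT, chosen after those searches with CCACG, was found in 4 of the 7 genes (Pgm3, Gfpt1, Gfpt2, Uap1) and in 33.8% of all windows. CCACG was found in 2 (Gfpt1, Uap1) and in 28.3% of all windows. Pgm3 carried CCAAT on the reverse strand at 76 to 72 and 17 to 13 bases before the start, and the windows of Mgea5 and Ogt held neither. These matches describe letters in the windows and are not measured binding sites.

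Starvation of knockout cells raised Gnpnat1 and Pgm3 and lowered Mgea5, 3 of the 10 genes. Of all genes, 18.2% passed in this comparison, 8.44% higher and 9.77% lower, and the median log2 fold change was -0.013 for the 10 genes and 0.00 over all genes. The groups did not overlap for 8 of the 10 genes, against 55.3% of all genes. The counts of the 10 genes and of all genes moved together with single libraries. With KO replicate 1 or KO replicate 2 left out, more of the 10 genes and more of all genes passed than with both. Those fits left 1 library in the KO group, and the filter on low counts was run again. Leaving out KO-GS replicate 1 or 2, 0 passed by edgeR (3 or 4 at an unadjusted p under 0.05), with 267 or 265 of all genes. When edgeR fitted only the KO and KO-GS libraries, 0 of the 10 genes and 0 of all genes passed (2 and 2803 at an unadjusted p under 0.05). Over all 8 libraries, 3 of the 10 genes and 2527 of all genes passed by edgeR, and 4 and 3570 by DESeq2.

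In this comparison the fibroblast markers Col3a1 (-1.39 ± 0.22) and Pdgfrb (-0.95 ± 0.27) were lower, and their part in the values was not tested.

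Mgea5 moved against its direction in wild-type cells. It was at 169 and 140.4 CPM in KO and at 92.9 and 90.1 CPM in KO-GS libraries, a fall of -0.76 ± 0.13 (adjusted p = 0.0104). The call was lost under 4 of 20 other settings: only the 4 libraries compared, the removal of either KO-GS library, and a minimum change of 1.5-fold. The value was -0.60 with KO replicate 1 left out and -0.88 with KO replicate 2 left out. Those fits left 1 KO library, so no error is given for them. Ogt was at 270.1 and 225 CPM in KO and at 199.6 and 199.7 CPM in KO-GS libraries, lower in both but short of the threshold (-0.31 ± 0.13, adjusted p = 0.148).

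In the synthetic route, Gnpnat1 went from 36.8 and 27.9 to 54.6 and 54.1 CPM (0.76 ± 0.16, adjusted p = 0.0219), a call lost under 8 of 20 other settings, among them the removal of any wild-type or KO-GS library. Pgm3 went from 24.7 and 25.4 to 36.1 and 35.5 CPM (0.51 ± 0.14, adjusted p = 0.0432), a rise that lost its call under 13 of 20 other settings. For Gfpt1 the direction depended on 1 library: it was at 221 and 154 CPM in KO and at 189.6 and 182 CPM in KO-GS libraries (-0.011 ± 0.18, adjusted p = 0.996). Leaving out KO replicate 1, the difference in Gfpt1 was 0.29, and leaving out KO replicate 2 it was -0.24. Gfpt2 was at 3.32 and 2.50 CPM in KO and at 1.52 and 1.72 CPM in KO-GS libraries, lower in both (-0.80 ± 0.25, adjusted p = 0.0695). Uap1 was at 82.0 and 70.2 CPM in rich medium and at 76.2 and 74.1 CPM after starvation, overlapping values (-0.015 ± 0.13, adjusted p = 0.968).

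Uap1l1 and Nagk were the genes on which the knockout rich replicates disagreed most. Uap1l1 was at 18.5 and 53.0 CPM in KO and at 68.3 and 66.8 CPM in KO-GS libraries (0.90 ± 0.40, adjusted p = 0.165). The difference was 0.37 with KO replicate 1 left out and 1.88 with KO replicate 2 left out. Nagk was at 15.1 and 33.8 CPM in KO and at 47.2 and 51.0 CPM in KO-GS libraries (0.99 ± 0.33, adjusted p = 0.0807), with 0.56 and 1.71 under the same removals. For both genes the starved libraries lay above the rich ones whichever replicate was used. Gnpda1, the gene with the largest rise in wild-type cells, was at 63.5 and 64.0 CPM in KO and at 60.3 and 54.5 CPM in KO-GS libraries (-0.15 ± 0.12, adjusted p = 0.434).

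**Figure D2:**
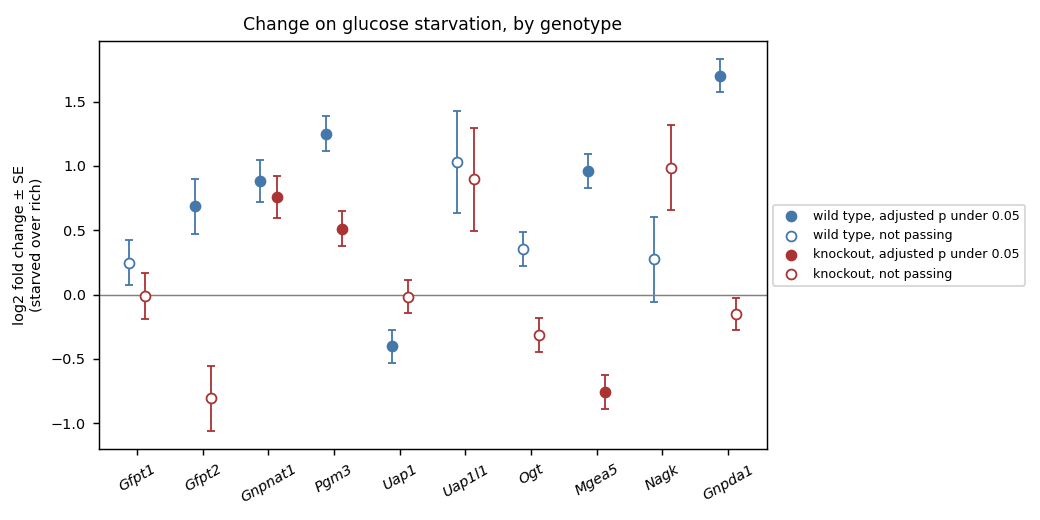
Log2 fold change of each gene on glucose starvation in wild-type (blue) and knockout (red) cells. Bars are standard errors, filled points have an adjusted p under 0.05 and open points do not. Mgea5 stands at 0.96 in wild-type and -0.76 in knockout cells, and Gnpda1 at 1.70 and -0.15.

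The starvation responses of the genotypes differed for 4 of the 10 genes by an interaction term, against 13.3% of all genes (7.43% higher and 5.91% lower in the knockout). All 4 had the lower response in the knockout. Gnpda1 differed by -1.85 ± 0.18 on the log2 scale (adjusted p = 0.00181, edgeR) and Mgea5 by -1.72 ± 0.19 (adjusted p = 0.00258), and both passed under all 19 other settings. Gfpt2 differed by -1.49 ± 0.33 (adjusted p = 0.0286) and Pgm3 by -0.74 ± 0.19 (adjusted p = 0.0490), calls that were lost under 9 and 10 of the 19 other settings, each of them without any wild-type or KO-GS library and with the replicate number as a block. For Ogt the difference was -0.66 ± 0.19 (adjusted p = 0.0602). Gfpt1 (-0.26 ± 0.25), Gnpnat1 (-0.13 ± 0.23), Uap1 (0.39 ± 0.18), Uap1l1 (-0.14 ± 0.56) and Nagk (0.71 ± 0.46) did not pass, which does not show that their responses were alike. With KO replicate 1 or KO replicate 2 left out, more of the 10 genes and more of all genes passed, in fits that left 1 library in the KO group.

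The ratio of Ogt to Mgea5 counts within a library does not depend on how the library is scaled. It was 1.72 and 1.52 in WT, 1.09 and 1.02 in WT-GS, 1.60 and 1.61 in KO and 2.15 and 2.22 in KO-GS libraries. The rich libraries of both genotypes thus lay together, the wild-type starved pair lay below all of them and the knockout starved pair above all of them. On the log2 scale the means were 0.69 ± 0.13 (SD, n = 2) in WT, 0.08 ± 0.07 in WT-GS, 0.68 ± 0.0046 in KO and 1.13 ± 0.03 in KO-GS. The knockout rich replicates, which differed in depth and in other genes, had nearly equal ratios. The ratio of Gfpt1 to Gfpt2 was 24.8 and 26.0 in WT, 20.9 and 16.8 in WT-GS, 66.4 and 61.6 in KO, and 124 and 106 in KO-GS libraries. Here the groups separated by genotype as well as by medium. With 2 libraries a group, these ratios are given as descriptions without a test, and since the genes differ in length only their change between groups can be read.

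**Figure D3:**
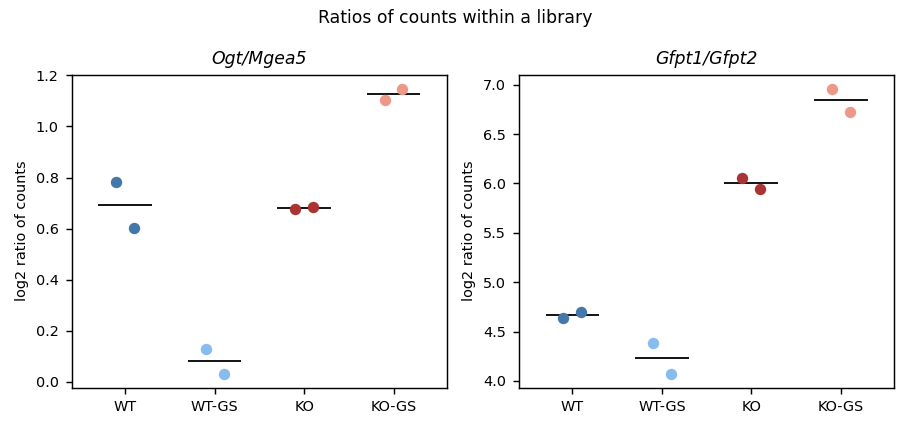
Log2 ratio of the counts of 2 genes within each library. Points are libraries and short lines are means of 2, and the axes do not start at 0. The Ogt/Mgea5 ratio is near 0.69 in WT and 0.68 in KO, 0.08 in WT-GS and 1.13 in KO-GS.

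In rich medium, knockout and wild-type cells differed at 2 of the 10 genes, against 44.1% of all genes (23.4% higher and 20.7% lower). Gnpda1 was higher in the knockout (63.8 ± 0.380 against 26.5 ± 1.00 CPM, SD, n = 2; log2 fold change 1.27 ± 0.13, adjusted p = 0.000291). Gfpt2 was lower (2.91 ± 0.579 against 5.51 ± 0.227 CPM; -0.96 ± 0.24, adjusted p = 0.0153). The groups did not overlap for 7 of the 10 genes, against 69.9% of all genes. With KO replicate 1 or KO replicate 2 left out, more of the 10 genes and more of all genes passed, in fits that left 1 library in the KO group. The call of Gfpt2 was lost under 5 of 20 other settings. These were the removal of either WT library, limma-voom with quality weights, only the 4 libraries compared, and a minimum change of 1.5-fold. The value of Nagk turned on the KO pair: 0.57 ± 0.33 (adjusted p = 0.197) with both, 0.97 with replicate 1 left out and -0.15 with replicate 2 left out.

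After starvation the genotypes differed at 7 of the 10 genes, 5 lower and 2 higher in the knockout, against 54.6% of all genes (26.8% lower and 27.8% higher). The median log2 fold change was -0.47 for the 10 genes and -0.017 over all genes. No gene overlapped between the groups, as for 89.6% of all genes. Gfpt2 was lower by the most (1.62 ± 0.139 against 8.86 ± 0.981 CPM, -2.45 ± 0.23, adjusted p = 0.000158). Mgea5 followed at 91.5 ± 1.94 against 241 ± 2.89 CPM (-1.40 ± 0.13, adjusted p = 0.000155), then Uap1l1 at 67.5 ± 1.05 against 149.9 ± 7.80 CPM (-1.15 ± 0.40, adjusted p = 0.0429). Pgm3 and Gnpda1 were lower by less (-0.85 ± 0.14 and -0.59 ± 0.12, adjusted p = 0.00171 and 0.00606). The knockout levels were higher for Nagk (49.1 ± 2.68 against 20.2 ± 2.01 CPM, 1.29 ± 0.33, adjusted p = 0.0135) and Uap1 (75.2 ± 1.55 against 46.9 ± 1.45 CPM, 0.68 ± 0.13, adjusted p = 0.00379). The call of Nagk was lost without any single WT-GS or KO-GS library, that of Uap1l1 without any single WT, WT-GS or KO-GS library, and that of Gnpda1 without WT-GS replicate 1 or KO-GS replicate 2. With a minimum change of 1.5-fold, the calls of Uap1l1, Gnpda1 and Uap1 were lost.

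Gnpda1 was higher in the knockout in rich medium, a call that held under all 20 other settings, and lower after starvation, a call lost under 3 of 20. Its levels ran in the order WT, KO-GS, KO, WT-GS, and KO-GS and KO did not differ beyond the threshold. The libraries of the other neighbouring groups did not overlap, but those pairs were not tested. For Mgea5 the order was KO-GS, WT, KO, WT-GS, and WT and KO did not differ beyond the threshold (0.32 ± 0.13, adjusted p = 0.0828). For Ogt, WT and KO-GS lay lowest and KO and WT-GS highest. Its genotype differences did not pass in rich medium (0.31 ± 0.13, adjusted p = 0.0947) or after starvation (-0.35 ± 0.13, adjusted p = 0.0570). Ogt is X-linked, and the genotypes differed at Xist, the RNA of the inactive X chromosome, which was at 682 to 867 CPM in wild-type and 0 to 0.369 CPM in knockout libraries. The part of this in the Ogt values was not tested.

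**Figure D4:**
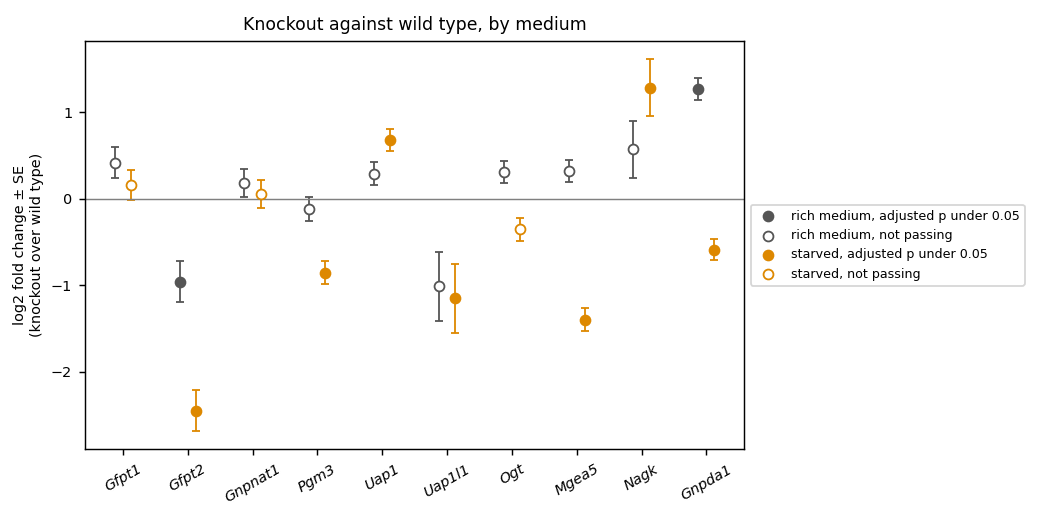
Log2 fold change of knockout over wild type for each gene, in rich medium (grey) and after starvation (orange). Bars are standard errors and filled points have an adjusted p under 0.05. Gnpda1 stands at 1.27 in rich medium and -0.59 after starvation, and Gfpt2 at -0.96 and -2.45.

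A wider list of 35 genes that salvage amino sugars or use UDP-GlcNAc was also tested. Starvation of wild-type cells raised 5 and lowered 11 of them (median -0.33), where 14.8% of all genes rose and 18% fell. The 6 of 12 N-glycan genes that passed were all lower, among them Mgat3, which adds the bisecting N-acetylglucosamine (46.0 and 47.6 to 8.57 and 11.2 CPM, -2.24 ± 0.22, adjusted p = 0.00073). The hyaluronan synthase Has2 fell from 8.55 and 10.2 to 0.717 and 0.831 CPM (-3.59 ± 0.27, adjusted p = 0.000315). Renbp, a renin-binding protein with N-acylglucosamine epimerase activity, rose by 1.07 ± 0.15 (adjusted p = 0.0027), and Piga, a subunit of the enzyme that starts the GPI anchor, by 1.12 ± 0.17 (adjusted p = 0.0031).

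In knockout cells 1 of the 35 genes rose on starvation and 5 fell (median -0.035), where 8.44% of all genes rose and 9.77% fell. Renbp was again the one that rose (33.6 and 34.0 to 59.9 and 65.3 CPM, 0.89 ± 0.15, adjusted p = 0.0103). Mgat3 fell by 2.68 ± 0.23 on the log2 scale (adjusted p = 0.00127) and Has2 by 1.29 ± 0.22 (adjusted p = 0.00991), from 37.9 and 27.7 to 14.7 and 12.0 CPM. The responses of the genotypes differed for 3 of the 35 genes, against 13.3% of all genes. They were higher in the knockout for Has2 (2.30 ± 0.35, adjusted p = 0.00766) and for Dpagt1, which starts the N-glycan precursor (1.47 ± 0.30, adjusted p = 0.0223). The response of Gnpda2, the isozyme of Gnpda1, was lower in the knockout (-1.60 ± 0.41, adjusted p = 0.0445). Gnpda2 was at 17.4 and 14.5 CPM in WT, 34.5 and 31.2 CPM in WT-GS, 67.2 and 35.4 CPM in KO and 33.8 and 35.6 CPM in KO-GS libraries, so replicate 2 of the knockout rich group lay with the starved pair and replicate 1 above it.

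**Figure D5:**
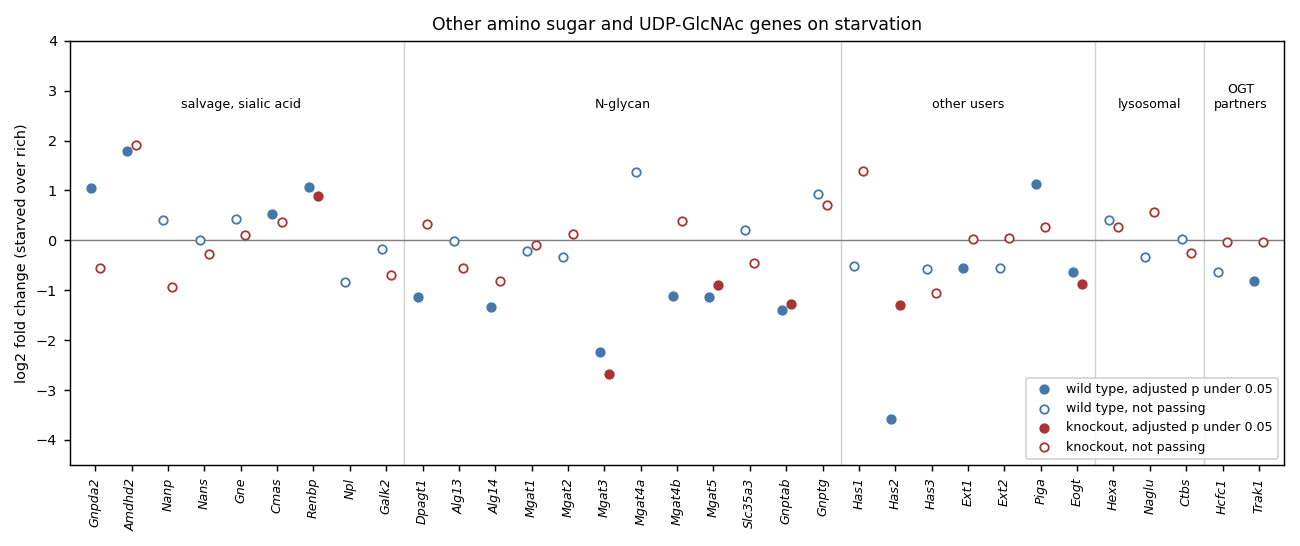
Log2 fold change on starvation of genes of the wider list, grouped by role, in wild-type (blue) and knockout (red) cells. Filled points have an adjusted p under 0.05, and Mgat4a and Npl are left out for the knockout, where a group had 0 counts. The lowest wild-type point is Has2 at -3.59, and Mgat3 is low in both genotypes at -2.24 and -2.68.

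Between the genotypes, 6 of the 35 genes were higher and 5 lower in the knockout in rich medium, where 23.4% of all genes were higher and 20.7% lower. After starvation 10 were higher and 5 lower, where 27.8% of all genes were higher and 26.8% lower. In rich medium the smallest p-values were those of Gnptab, which tags lysosomal enzymes with GlcNAc-phosphate (2.21 ± 0.23, adjusted p = 0.000353), and Has2 (1.80 ± 0.23, adjusted p = 0.000799) among the higher genes. After starvation Has2 and Has1 were higher by 4.09 ± 0.27 and 6.18 ± 0.62 (adjusted p = 3.42e-05 and 0.000204), with Has1 at 72.1 and 71.6 CPM in KO-GS against 1.12 and 0.866 CPM in WT-GS libraries. Mgat4a had 0 counts in both KO-GS libraries and was at least 32.9-fold lower there than in WT-GS, taking 3 counts over the group as the floor.

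The genes whose levels over the 8 libraries lay closest to those of the O-GlcNAc enzymes and the entry enzymes were sought among 9023 genes with a mean of at least 10 CPM, by Pearson's r of log2 CPM. Nearest to Mgea5 were Armcx1 (r = 0.997), Dtl (r = 0.992) and Tob1 (r = 0.983). Nearest to Ogt were Zfp871 (r = 0.980), Sap130 (r = 0.978) and Eif1b (r = 0.976). For Gfpt2 they were Fignl1 (r = 0.996), Hspa2 (r = 0.990) and Pms2 (r = 0.988), and for Gfpt1 they were Phf20l1 (r = 0.990), Cnot4 (r = 0.986) and Zfp518a (r = 0.985). The 8 points share 4 groups and a common scaling, so these values describe likeness over the groups and carry no test. With KO replicate 1 left out, the genes nearest to Gfpt1 stood at places 28, 35 and 75, those of Gfpt2 at 5, 30 and 31, those of Ogt at 11, 5 and 20, and those of Mgea5 at 3, 8 and 22, each in the order named.

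The stress genes listed beside the pathway moved with starvation in both genotypes. They were 9 genes of the unfolded protein and integrated stress responses, Xbp1, Atf4, Ddit3 and Hspa5 among them. All 9 rose in wild-type and 8 in knockout cells, where 14.8% and 8.44% of all genes rose. Their median log2 fold changes were 1.79 and 1.69. Their response was lower in the knockout for 4 and higher for 1 of the 9 by the interaction term. Of all genes, 5.91% were lower and 7.43% higher by this term. Their part in the values of the hexosamine genes was not tested. In the RefSeq annotation the coding gene Styx overlaps Gnpnat1, Dop1a overlaps Pgm3, and non-coding genes overlap Gfpt2 and Gnpda1. No source used here states whether counting used strand, so reads of such partners cannot be told apart.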

How the data were processed

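RNA-seq of 8 mouse fibroblast libraries was used, and 4 chromatin immunoprecipitation libraries of the study are not analysed here. The deposited values are whole-number read counts per RefSeq transcript, and mm9, TopHat2 2.0.9 and bedtools are named, without their roles, per the submitters' processing notes. Rules on strand and multi-mapping: not given in the sources used here. Groups and replicate numbers came from the labels and were matched to the column names.

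Each of 23366 symbols (31055 transcript rows) was represented by its row with the highest total. With edgeR 4.0.16 in R 4.3.3, filterByExpr kept 13882 genes, TMM scaled the libraries, and quasi-likelihood tests on all 8 libraries, with a mean per group, gave 5 contrasts. SE is the log2 fold change divided by the square root of F. Benjamini-Hochberg adjustment ran over all genes tested. The biological coefficient of variation was 18.5%. At the depths here 3 counts correspond to 0.104 to 0.369 CPM, which covers counting error only.

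The test was tried on simulated data, 13882 genes with 200 given known changes. For starvation in wild-type and in knockout cells it recovered 97% and 93% of 4-fold and 30% and 31% of 2-fold changes. For the genotypes it recovered 90% and 20% (rich) and 92% and 29% (starved), and for the interaction 68% and 9%. Apart from the known changes, the simulation gave each gene the same mean and spread in all groups. In the data, the SD of log2 ratios between replicates was 0.908 in KO, 0.348 in WT, 0.337 in WT-GS and 0.360 in KO-GS. Many more than 200 genes were also called there. The simulated shares therefore do not show how recovery differs between the comparisons in the data.

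The members and lists were chosen with earlier results of these data known. All 10 members are named, and from the wider list the 2 genes with the smallest p passing in each direction per contrast. Some of the latter are not reported here. Likeness names 3 genes for each of 4 members. Settings varied were RLE factors, total counts, no filter, at least 5 CPM in 2 libraries, DESeq2 1.42.0, limma-voom (limma 3.58.1) without and with quality weights, a replicate block, only the 4 libraries compared, each library left out, transcript rows summed or lowest, and a minimum change of 1.5-fold. The CCAAT and CCACG searches were added after the other motifs were searched. Upstream sequences are RefSeq's, build GRCm38.p6.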

Additional observations from a re-analysis of the deposited data

Results flagged for a closer look

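The starvation response differed between knockout and wild-type cells at 4 genes by the interaction term of the edgeR fit. The log2 difference, knockout response minus wild-type response, was -1.49 for Gfpt2, -1.85 for Gnpda1, -1.72 for Mgea5 and -0.74 for Pgm3. For Mgea5 the response was a rise in wild-type cells (both WT-GS above both WT libraries) and a fall in knockout cells (both KO-GS below both KO libraries). For Gnpda1 the 2 knockout groups lay between the 2 wild-type groups. For Pgm3 both genotypes rose, and for Gfpt2 the fall in knockout cells did not pass by itself (adjusted p = 0.0695). The genotype cannot be told apart from the other differences between the cultures, among them Cdh5, Kdr, Dcn, Thy1, Col1a1 and Xist.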

How the results depend on the processing

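Over 10 genes and 5 contrasts, 826 values from other settings kept direction and side of the threshold, 93 lost the call, 56 gained it and 15 changed sign. When 1 library was left out, its partner was assumed to vary like the other groups, and the filter on low counts was run again. The number of the 10 genes called then ranged from 3 to 10 (wild-type starvation, 6 reported), 0 to 8 (knockout starvation, 3), 1 to 8 (genotypes in rich medium, 2), 4 to 9 (genotypes after starvation, 7) and 2 to 9 (interaction, 4), and the number of all genes called from 1579 to 9561 (4560 reported), 265 to 8410 (2527), 3370 to 10336 (6116), 5127 to 11435 (7586) and 452 to 8020 (1853). The highest numbers of the 10 genes came with a KO library left out. Limma-voom with quality weights and a fit of only the 4 libraries compared each gave 10 for wild-type starvation (9397 and 9332 of all genes) and 1 for the genotypes in rich medium (3746 and 3245), and the 4-library edgeR fit gave 0 for knockout starvation. A minimum change of 1.5-fold gave 3, 0, 1, 4 and 2 of the 10 genes and 2027, 683, 3627, 5110 and 821 of all genes, with 1 of the 10 at an unadjusted p under 0.05 in knockout starvation. Quality weights gave 1316 of all genes for knockout starvation, and DESeq2 gave 2880 for the interaction.

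The replicate block gave 4, 2, 2, 7 and 2 of the 10 genes and 4123, 2111, 5799, 7360 and 1491 of all genes. In the interaction the calls of Gfpt2 and Pgm3 were lost. Deviations of same-numbered libraries correlated between -0.0255 and 0.0631, so no shared shift by replicate number was seen. These values cannot tell whether same-numbered libraries came from a common culture or batch.

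Signs changed for 5 genes. In knockout starvation, Gfpt1 was at 0.022 by limma-voom, 0.095 with quality weights and 0.0014 with the replicate block, and between -0.24 and 0.29 over removals of 1 library. Uap1 was there at 0.00056 and 0.035 by limma-voom without and with quality weights, and between -0.12 and 0.12 over removals. Over removals Gnpnat1 ran from -0.065 to 0.37 in rich medium and from -0.31 to 0.12 in the interaction, and it was at -0.063 after starvation with total counts. Nagk ran from -0.15 to 0.97 in rich medium, and in the interaction Gfpt1 ran from -0.49 to 0.064 and Uap1l1 from -0.64 to 0.85. Of these, Gfpt1 in knockout starvation (0.29 and -0.24) and Uap1l1 in the interaction (0.85 and -0.64) took opposite signs, depending on which KO library was left out. Those fits left 1 library in the KO group, so their errors do not measure the spread of that group. The causes were not tested.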

Other observations

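Outside the genes named by rule, Amdhd2, the deacetylase that returns N-acetylglucosamine 6-phosphate to glucosamine 6-phosphate, was chosen after its values were seen because it works beside Gnpda1. It was at 18.5 and 15.8 CPM in WT, 56.2 and 61.8 CPM in WT-GS, 2.83 and 15.0 CPM in KO, and 33.8 and 38.0 CPM in KO-GS libraries. Starved libraries lay above rich ones in both genotypes. The rise passed in wild-type cells (1.78 ± 0.55, adjusted p = 0.0437, edgeR) and not in knockout cells (1.92 ± 0.57, adjusted p = 0.0570), and the interaction was 0.14 ± 0.77 (adjusted p = 0.963).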
